A study of Mus musculus with 16 samples.

Results

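The genes described here are Nxnl1 and Nxnl2, which encode the rod-derived cone viability factors, with the thioredoxin genes Txn1, Txn2, Txnrd1, Txnrd2, Txnip and Txnl1 and the related gene Nxn. They are 9 of the 17005 genes with a RefSeq symbol that were measured in whole retina of C57BL6 mice, and they have 15 of the 25697 probes of a single-colour Illumina BeadChip. The genes were put together because Nxnl2 was lower in aged than in young retina of both sexes in these same arrays. That difference chose the set, so it is only described, and nothing is read from its model calls and intervals. Of the 15 probes, 10 carry a listed symbol in the table, and 5 carry an older name that RefSeq lists as a unique synonym (Txnl6 for Nxnl1, 4 probes, and 4930519N16Rik for Nxnl2, 1 probe). The 4 groups were females and males at 3 months and aged females and males at 24 months, 4 arrays each, all of untreated mice. Male aged 1 is called aged in its title but 12 months old in its age field, and it was kept with the aged males. Array means lay between 158 and 240 intensity units, the arrays sat on 5 slides, and the number of arrays limits the precision. No label says whether each array came from its own animal. The p-values therefore reflect only the spread among these arrays, which may be technical.

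Rods and cones are the photoreceptors of the retina, and cones depend on rods for survival. Nxnl1 and Nxnl2 are thioredoxin-like genes of photoreceptors. By alternative splicing each gives a short secreted form that protects cones and a long form with the thioredoxin fold. The short Nxnl1 product binds basigin on cones, together with the glucose transporter GLUT1, and raises glucose uptake. In the thioredoxin system, thioredoxin reduces oxidised proteins and thioredoxin reductase recharges it with NADPH. Txnip, an alpha-arrestin, binds thioredoxin and restrains glucose transporters.

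The windows around a start site of Nxnl1 and Nxnl2 are shown because these are the rod-derived factor genes, and Nxnl2 is the member that chose the set. They run from 250 bases before to 50 after 1 start site per gene in RefSeq's mouse build GRCm38.p6, 5′ to 3′ on the gene's strand. For Nxnl1 this start is the 5′ end of the gene's span. For Nxnl2, which has 5 RefSeq transcripts, it lies 2319 bases downstream of the 5′ end of the span, so at least 1 transcript starts further upstream, outside the window. Nxnl1 is at chr8:71566600-71566899 on the minus strand, and Nxnl2 is at chr13:51170775-51171074 on the plus strand. Capitals mark TAATCC or TAATCT on either strand, letters of the kind that the photoreceptor homeodomain factor CRX binds.
Nxnl1: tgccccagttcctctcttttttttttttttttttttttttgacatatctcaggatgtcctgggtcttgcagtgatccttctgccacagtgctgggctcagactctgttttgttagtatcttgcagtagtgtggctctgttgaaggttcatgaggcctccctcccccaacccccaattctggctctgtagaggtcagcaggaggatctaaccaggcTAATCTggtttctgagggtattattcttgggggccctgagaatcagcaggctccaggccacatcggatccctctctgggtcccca
Nxnl2: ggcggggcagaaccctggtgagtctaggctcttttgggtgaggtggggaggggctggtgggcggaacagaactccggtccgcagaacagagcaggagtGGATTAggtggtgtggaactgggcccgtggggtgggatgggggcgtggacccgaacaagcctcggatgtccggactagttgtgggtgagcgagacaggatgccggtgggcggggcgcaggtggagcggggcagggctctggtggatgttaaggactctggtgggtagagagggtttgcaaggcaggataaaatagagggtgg

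The Nxnl2 window held TAATCC on the opposite strand, read as GGATTA from base 99, and the Nxnl1 window held TAATCT on its own strand from base 216. TAATCC on either strand occurred in 7.16% and TAATCT in 8.34% of 27025 windows of the same length, 1 per gene. TGCTGA, the core letters of the element bound by the rod factor NRL and its relatives, occurred on the opposite strand from bases 193 and 258 of the Nxnl1 window and not in that of Nxnl2. It occurred in 19.1% of all windows and overlapped neither marked match. These matches are letters in a window and not measured binding.

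Nxnl2 was detected on all 16 arrays (detection p-value under 0.05), and its levels fell into a young and an aged range. In young females its log2 normalised intensities were 10.55, 10.73, 10.43 and 10.41, and in aged females 9.86, 9.87, 9.85 and 10.01. In young males they were 10.30, 10.45, 10.40 and 10.43, and in aged males 9.99, 9.78, 9.84 and 9.86. The lowest young array of either sex lay above the highest aged array, while females and males of one age overlapped. Of all probes tested 0.213% were likewise lower on every aged array of each sex.

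In order of level, Nxnl2 stood at 10.53 ± 0.14 (SD, n = 4) in young females, 10.39 ± 0.07 in young males, 9.90 ± 0.08 in aged females and 9.87 ± 0.09 in aged males. Of the neighbours in this order, only young males and aged females did not overlap. The aged minus young difference was -0.64 on the log2 scale (SE 0.08 of limma's model over all arrays) in females and -0.53 (SE 0.08) in males, or -35.6% and -30.6% in intensity. The mean over both sexes was -0.58 (SE 0.06), the 30th lowest of 15016 probes tested. These are the values that chose the set. In whole-retina RNA, fewer cells that make a transcript and less transcript per cell cannot be told apart.

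The Nxnl2 difference was present on each slide that held both ages of a sex. Among females it was -0.70 on slide 2 and -0.42 on slide 4, each with 1 array per age. Among males it was -0.31 on slide 1, where the aged array is the one with the 12-month label, and -0.61 on slide 3, with 2 arrays per age. Slide 1 thus gave the smallest of these differences, and male aged 1 had the highest Nxnl2 level of the aged males. With slide as a fixed block the differences were -0.66 in females and -0.53 in males. Without male aged 1 the male difference was -0.57.

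**Figure D1:**
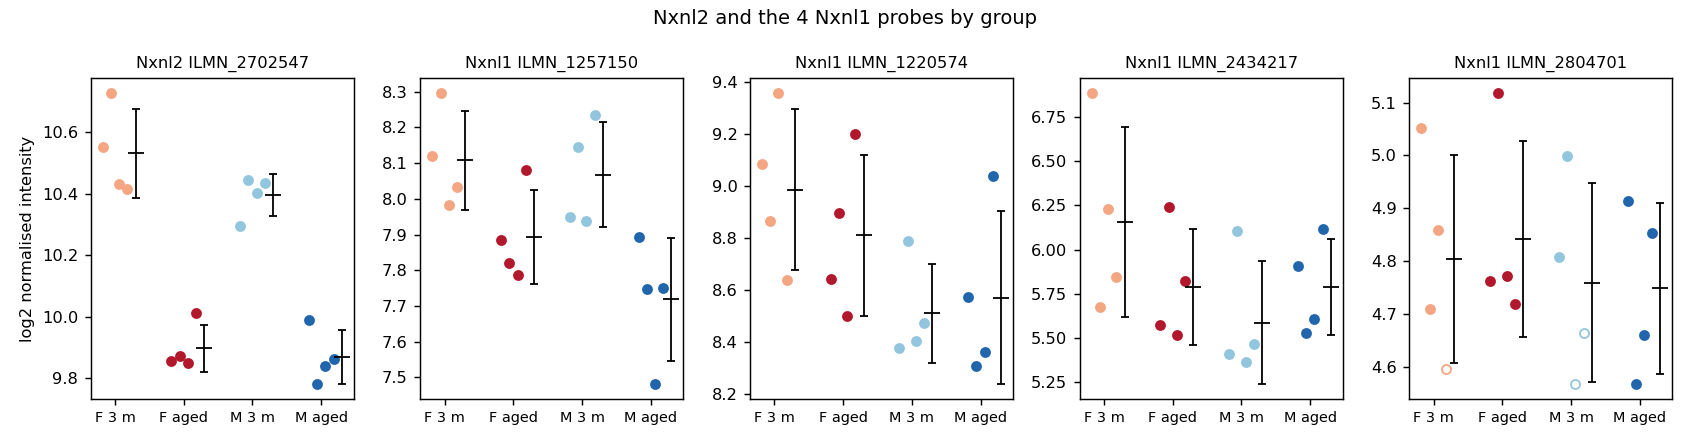
Log2 normalised intensity (vertical axes, each with its own range, none starting at 0) of the Nxnl2 probe and the 4 Nxnl1 probes in females (F) and males (M) at 3 months and aged, 1 point per array, with the group mean and SD in black. Open points lie below detection; the young and aged points of Nxnl2 are apart in both sexes (10.30 and above against 10.01 and below), while those of the Nxnl1 probes overlap in most panels.

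The sexes were then compared at each age, and aging was compared between them. The set had not been chosen on the sex difference at either age. For Nxnl2 neither of these sex differences passed limma's test. Young males lay 0.14 below young females (difference -0.14, SE 0.08, 95% interval -0.31 to 0.03, limma adjusted p = 0.41). Aged males lay at -0.03 relative to aged females (SE 0.08, 95% interval -0.20 to 0.14, limma adjusted p = 0.93). The aging difference of males minus that of females was 0.11 (SE 0.11). For Nxnl2 this contrast is made of the aging differences that chose the set, so it is only described.

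The 4 probes of Nxnl1, the founding gene of the family, did not behave alike. Probe ILMN_1257150, detected on all arrays, read 8.12, 8.30, 7.98 and 8.03 in young females and 7.89, 7.82, 7.79 and 8.08 in aged females. It read 7.95, 8.14, 7.94 and 8.24 in young males and 7.89, 7.75, 7.48 and 7.75 in aged males. The ages overlapped in females through female aged 4, and in males every aged array lay below every young one, as for 5.21% of all probes tested. Aged minus young was -0.21 (SE 0.10) in females and -0.35 (SE 0.10) in males. Within slides it was -0.33 and 0.099 in females and -0.057 and -0.47 in males, so the sign turned on slide 4.

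Probe ILMN_1220574, also detected on all arrays, read 9.09, 8.87, 9.36 and 8.64 in young females and 8.64, 8.90, 8.50 and 9.20 in aged females. It read 8.38, 8.79, 8.41 and 8.47 in young males and 8.57, 8.31, 8.36 and 9.04 in aged males. The ages overlapped in both sexes, with aged minus young of -0.18 (SE 0.18) in females and 0.06 (SE 0.18) in males. The dimmer probe ILMN_2434217 ranged from 5.36 to 6.89 and gave -0.37 (SE 0.24) and 0.20 (SE 0.24). Probe ILMN_2804701, detected on 13 of 16 arrays, ranged from 4.57 to 5.12 and gave 0.04 (SE 0.12) and -0.01 (SE 0.12). The table holds no probe sequences, so which Nxnl1 splice form a probe reads is not given here.

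Between the sexes, none of the Nxnl1 probes passed. The 2 largest differences at 3 months were -0.57 for ILMN_2434217 (male minus female, SE 0.24, limma adjusted p = 0.26) and -0.47 for ILMN_1220574 (SE 0.18, limma adjusted p = 0.22). In aged mice the 4 probes lay between -0.24 and 0.00086.

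The Nxnl1 probes tracked different members from array to array, a pattern noticed after the values were seen. After group means were removed, ILMN_1257150 correlated with Nxnl2 at r = 0.76 over the 16 arrays. Its levels correlated with those of Nxnl2 at r = 0.82 (Spearman's rho 0.94), a figure that includes the difference between the ages. ILMN_1220574 followed Txn1 (r = 0.83 after group means were removed), and ILMN_2434217 followed ILMN_2804701 (r = 0.87) and Txn1 (r = 0.72). Among the Nxnl1 probes, with group means removed, ILMN_1220574 correlated with ILMN_2434217 at r = 0.67 and with ILMN_2804701 at r = 0.53. ILMN_1257150 correlated less with them, at r = 0.31 for ILMN_1220574, 0.10 for ILMN_2434217 and 0.086 for ILMN_2804701. Some negative values were of similar size to the positive ones. With group means removed, ILMN_2804701 correlated with Txnrd2 probes ILMN_1231952 and ILMN_2424605 at r = -0.82 and -0.76. For ILMN_2434217 these values were -0.62 and -0.69, and Nxnl2 correlated with Nxn at r = -0.68. All these values share the same arrays and scaling and are descriptions with no test. Levels of the dim probes ILMN_2434217 and ILMN_2804701 also moved with the mean raw intensity of the array (r = 0.75 and 0.78), against -0.15 for Nxnl2 and -0.13 for ILMN_1257150. For ILMN_1220574 and Txn1 this correlation was 0.47 and 0.53.

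**Figure D2:**
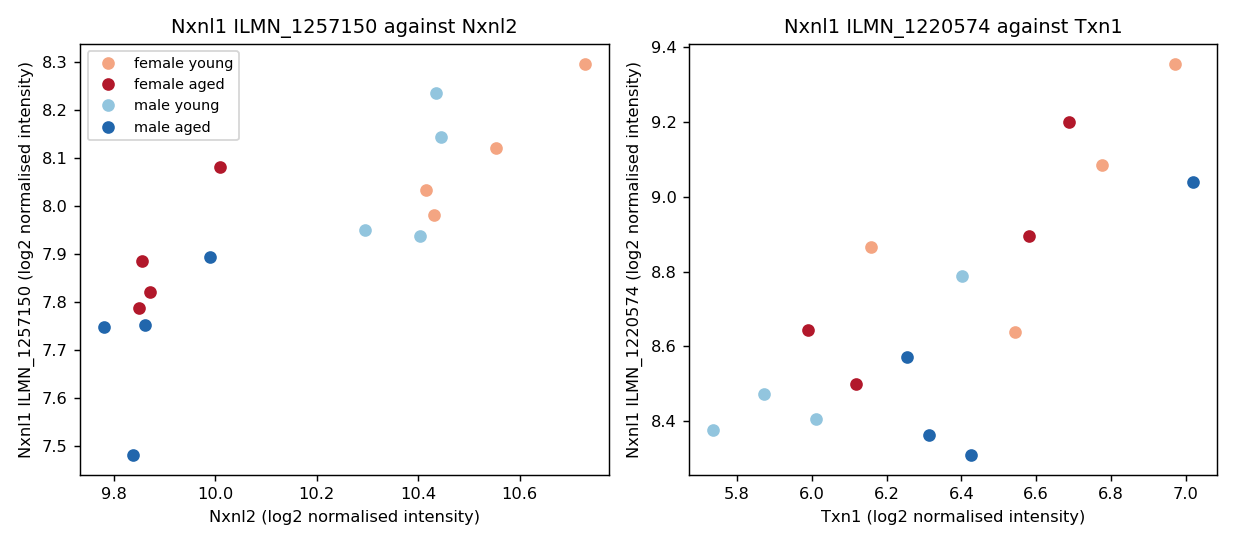
Log2 normalised intensity of Nxnl1 probe ILMN_1257150 against Nxnl2 (left) and of Nxnl1 probe ILMN_1220574 against Txn1 (right), 1 point per array, coloured by group. On the left the ages are apart along Nxnl2. Along ILMN_1257150 female aged 4, at 8.08, lies among the young arrays, which run from 7.94 to 8.30. On the right the groups mix.

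Among the thioredoxins, Txn1, the cytosolic form, had 1 probe above background, ILMN_3009572. It read 6.77, 6.16, 6.97 and 6.54 in young females and 5.99, 6.58, 6.12 and 6.69 in aged females. It read 5.74, 6.40, 6.01 and 5.87 in young males and 6.25, 6.43, 6.31 and 7.02 in aged males. The ages overlapped in both sexes. Aged minus young was -0.27 (SE 0.21) in females and 0.50 (SE 0.21) in males, and the difference between the sexes in aging did not pass (0.77, SE 0.29, limma adjusted p = 0.51). Nor did the sex difference at 3 months (male minus female -0.61, SE 0.21, limma adjusted p = 0.17). Its other 2 probes, ILMN_1377922 and ILMN_2588054, were detected on 0 of 16 arrays and were not tested.

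For Txn2, the mitochondrial thioredoxin, the arrays of all 4 groups overlapped. Its means were 7.36 ± 0.02 in young and 7.43 ± 0.22 in aged females, and 7.40 ± 0.11 in young and 7.34 ± 0.11 in aged males (SD, n = 4 each). Aged minus young was 0.06 (SE 0.10) in females and -0.06 (SE 0.10) in males.

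Txnrd1 encodes the cytosolic thioredoxin reductase, a selenoenzyme, and its only probe lay close to background. It read 4.83, 4.71, 5.03 and 5.06 in young females and 4.62, 4.55, 4.63 and 4.67 in aged females. In young males it was below detection on all 4 arrays (4.55, 4.57, 4.43 and 4.58), and in aged males it read 4.75, 4.64, 4.79 and 4.66 and was detected on all 4. Every aged female array thus lay below the young ones (1.53% of all probes) and every aged male array above the young ones (3.88%). Of all probes tested 0.02% did both (3 of 15016), and 0.0733% did the opposite.

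The aged minus young difference of Txnrd1 was -0.29 (SE 0.08) in females and 0.18 (SE 0.08) in males. With young males set to background (the lowest level of a detected probe on each array), the male ratio was 1.07-fold, ignoring spread among arrays. The male aging difference minus that of females did not pass limma's test over all probes (0.47, SE 0.11, 95% interval 0.23 to 0.71, unadjusted p = 0.00073, adjusted p = 0.46). Over the alternatives this adjusted p ran from 0.24 to 0.79, and without background correction the difference was 0.24. At 3 months no young male array of Txnrd1 reached a young female one, as for 3.92% of all probes (measured means 4.53 and 4.91). With young males set to background, the ratio of females to males was 1.23-fold, again ignoring spread among arrays. The measured difference did not pass (male minus female -0.38, SE 0.08, 95% interval -0.55 to -0.21, limma adjusted p = 0.0540). This p passed with array weights (0.0231) and without female young 2 (0.0214), female aged 2 (0.0468) or male young 2 (0.0420), and ran up to 0.22 elsewhere. No member probe passed in that comparison, against 0.393% of all probes.

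Txnrd2, the mitochondrial reductase gene, gave flat values on both of its probes. ILMN_2424605 had group means of 6.97 to 7.16 and aging differences of -0.05 (SE 0.09) in females and -0.13 (SE 0.09) in males. ILMN_1231952 had means of 6.67 to 6.80 and differences of -0.01 (SE 0.09) and 0.02 (SE 0.09). Both moved against array brightness (r = -0.63 and -0.78 with mean raw intensity over 16 arrays).

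Txnip varied more between arrays of a group than between groups. It read 5.73, 5.84, 6.00 and 7.20 in young females and 5.83, 5.51, 6.16 and 5.97 in aged females. It read 6.50, 5.92, 6.30 and 6.18 in young males and 5.78, 6.73, 6.07 and 6.59 in aged males. Female young 4 alone stood above 7, and all groups overlapped. Aged minus young was -0.32 (SE 0.27) in females and 0.06 (SE 0.27) in males, and the female value was 0.14 with slide as a fixed block. Female young 4 carried the female difference, which was 0.011 without it.

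Nxn, nucleoredoxin, a thioredoxin-related regulator of Wnt signalling, had group means between 9.08 and 9.21 and SDs of 0.10 to 0.34. Its aging differences were -0.02 (SE 0.16) in females and 0.04 (SE 0.16) in males. The probe of Txnl1, a thioredoxin-like protein of the proteasome, was detected on 0 of 16 arrays and was not tested.

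**Figure D3:**
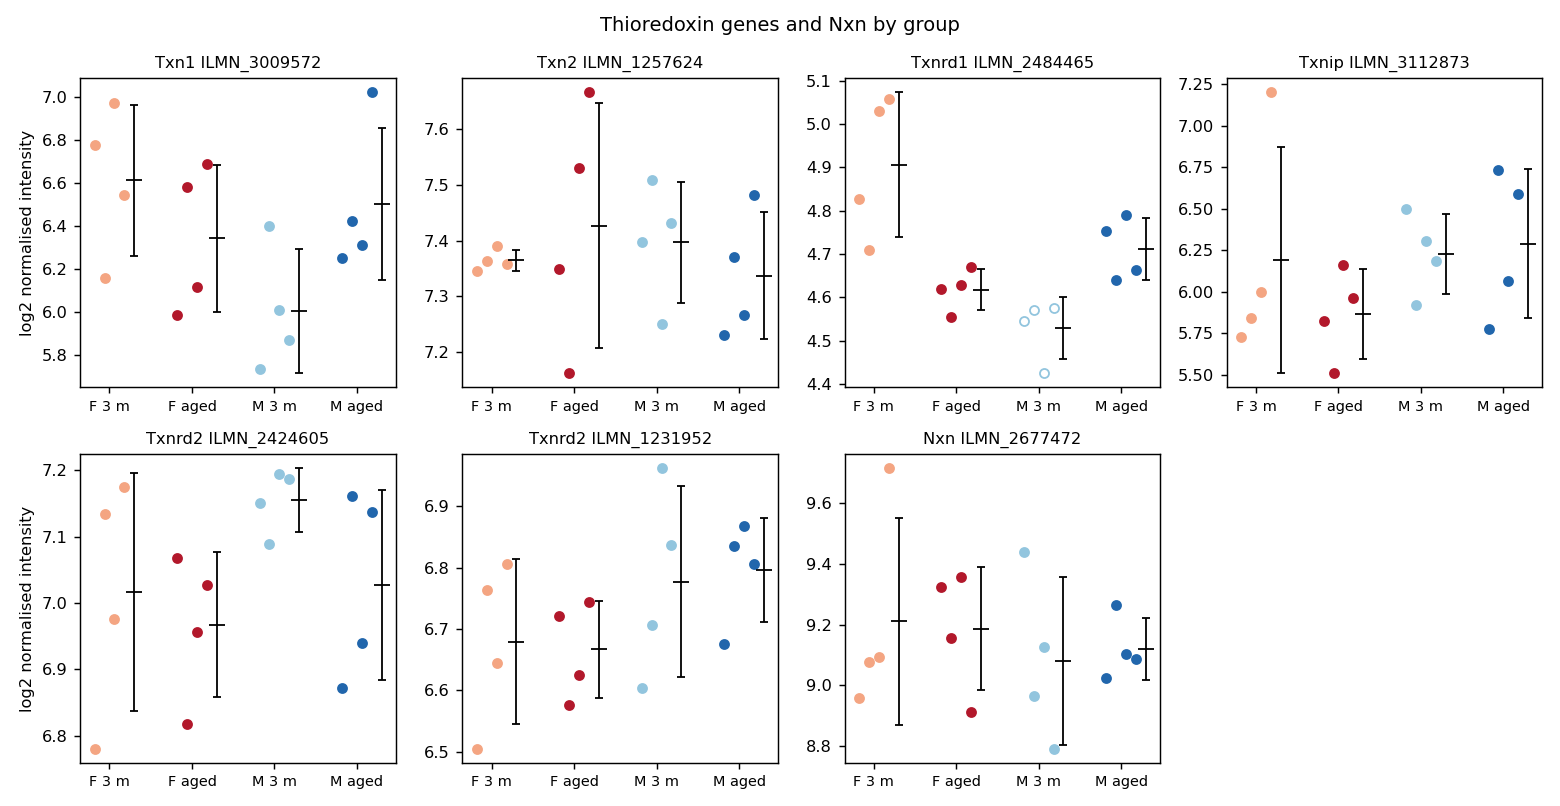
Log2 normalised intensity (vertical axes, each with its own range, none starting at 0) of the 7 other tested probes in females (F) and males (M) at 3 months and aged, 1 point per array, with group mean and SD in black. Open points lie below detection, as on all 4 arrays of young males for Txnrd1; in the other panels the young and aged arrays of each sex overlap.

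In all, 12 of the 15 member probes, for 8 of the 9 genes, passed the filter of detection on at least 4 of 16 arrays and were tested. For aging, 1 of 12 was called lower in females, where 0.0999% of all probes were called lower (0.633% in either direction), and 1 of 12 in males, where 0.226% were (0.992% in either direction). Both calls are Nxnl2, the gene that chose the set, so nothing is read from these counts. Over the 12 probes the median aging difference was -0.20 in females and 0.03 in males, against -0.00099 and -0.022 over all probes. Without Nxnl2 the other 11 ranged from -0.37 to 0.06 in females and from -0.35 to 0.50 in males. No member probe was called for sex in aged mice, against 0.686% of all probes. For the difference in aging between the sexes, limma called 0 of 15016 probes in the main model and under all 26 alternatives. In the main model 1402 probes had an unadjusted p under 0.05, among them Txnrd1 and Txn1.

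**Figure D4:**
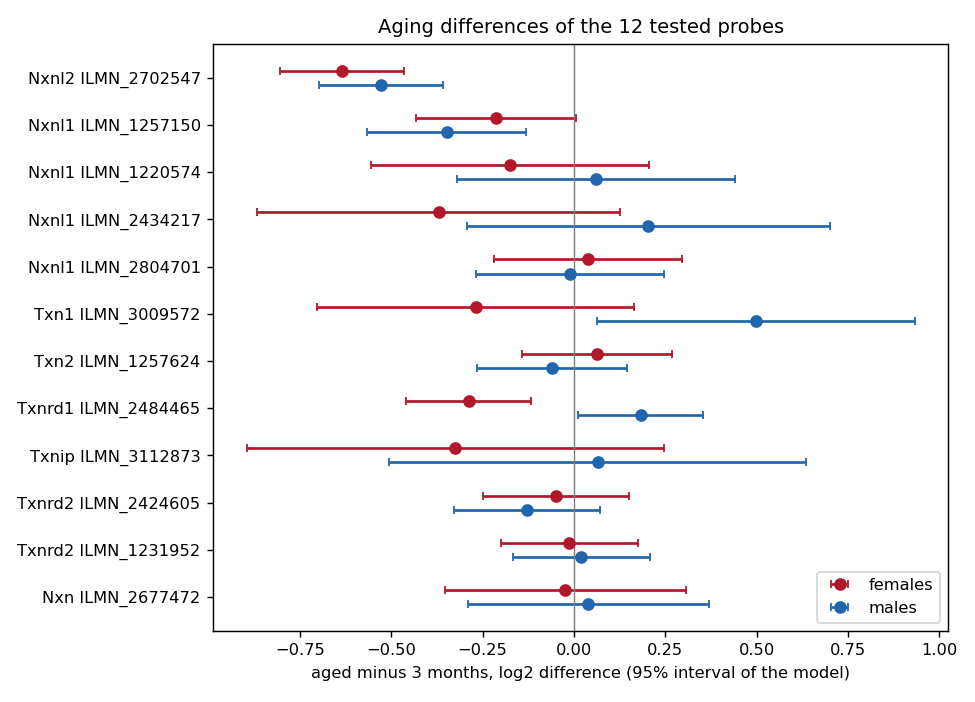
Aged minus young log2 difference of the 12 tested probes, in females (red) and males (blue), with 95% intervals of limma's model. The Nxnl2 difference chose the set, so its intervals are a description and not a test. Nxnl2 lies left of 0 in both sexes (-0.64 and -0.53), as does Nxnl1 probe ILMN_1257150 (-0.21 and -0.35), while Txn1 and Txnrd1 lie left of 0 in females and right of it in males.

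**Figure D5:**
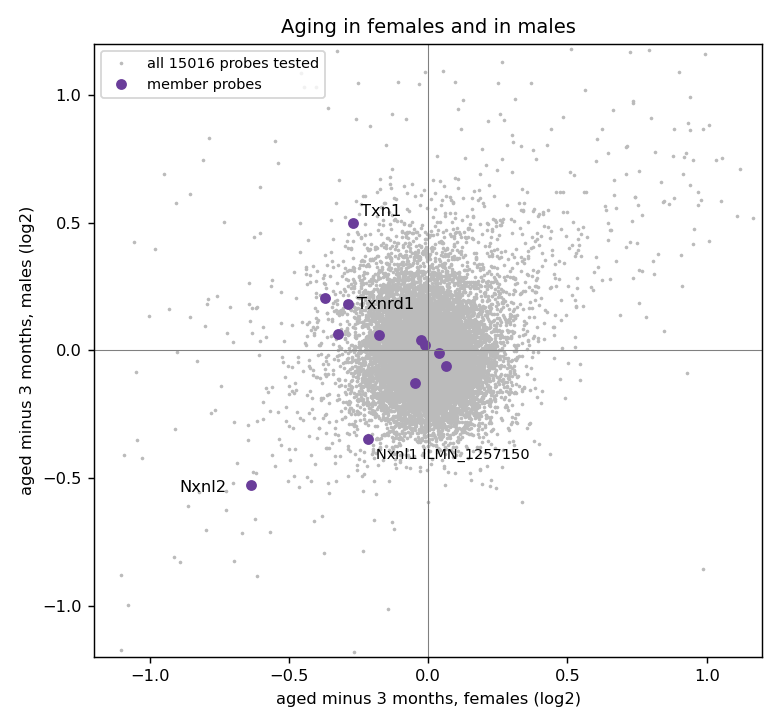
Aged minus young log2 difference in females (horizontal) against males (vertical) for the 15016 tested probes (grey) and the 12 member probes (purple); 62 probes lie outside the axes, which end at 1.2. Nxnl2 lies at the lower left edge of the cloud, and Txn1 and Txnrd1 lie to its upper left.

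Other genes were ranked by how closely their levels followed Nxnl2 over the 16 arrays. The closest was Snrk, a kinase related to the AMP-activated kinase (Pearson's r = 0.91, Spearman's rho 0.92), with aged minus young of -0.29 (SE 0.08) in females and -0.38 (SE 0.08) in males. Ndufaf5, an assembly factor of respiratory complex I, followed (r = 0.90), then Dynlrb2, a dynein light chain (r = 0.89), Rasl11a of the Ras family (r = 0.89) and Kansl1l (r = 0.87). Without the 2 arrays farthest from the Nxnl2 median, the 5 values ran from 0.85 to 0.94. Since Nxnl2 separates the ages, this ranking takes genes that do the same. Dynlrb2 averaged 4.25 in aged females and 4.34 in aged males, near background. The undetected Txn1 probe ILMN_2588054 averaged 4.26 in both of these groups. With group means removed the order changed to Kcna2, a potassium channel gene (r = 0.86), Cpt1b (0.84), Rhof (0.84) and Lpin2 (0.81). The aging differences of these 4 lay between -0.26 and 0.14.

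Of the genes for the receptor of the short Nxnl1 product and for glucose uptake and use, 7 of 8 were tested. Whole-retina RNA does not tell in which cells they are expressed. For aging 0 were called in females, in males or for the mean of both, where 1.88% of all probes were called. Bsg, which encodes basigin, had differences of -0.014 (SE 0.12, limma adjusted p = 0.99) and 0.036 (SE 0.12, adjusted p = 0.92) in females and males. Slc2a1, the gene of GLUT1, had -0.035 (SE 0.12, limma adjusted p = 0.99) and 0.062 (SE 0.12, adjusted p = 0.85). The list's medians were 0.18 in females and -0.15 in males, and its lowest p for the mean of both sexes belonged to Ldha, Hk2 and Hk1, none of them called.

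Of 15 tested rod genes and 13 tested cone genes, 0 were called for aging in either sex (0.633% of all probes in females and 0.992% in males), with medians for the mean of both of -0.041 and -0.078. The mean rod level per array ran from 11.5 to 11.7 in young and from 11.6 to 11.7 in aged females, and from 11.5 to 11.6 and 11.4 to 11.6 in males. Cone levels ran from 9.10 to 9.35, 9.16 to 9.32, 9.16 to 9.32 and 9.08 to 9.24 in the same order. Each tested rod and cone gene was detected on at least 1 array of every group. These mean levels overlapped between the ages in both sexes.

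Of the other marker lists, those of Müller glia (0 of 9), blood (0 of 3) and photoreceptor regulators (0 of 6) had no gene called for aging in either sex or for the mean of both. All 3 blood genes nonetheless had positive aging differences in both sexes (medians 1.17 in females and 0.43 in males). Their mean levels spread widely, from 6.53 to 7.05 in young and 6.85 to 9.11 in aged females. In males they ran from 6.52 to 7.96 and 6.15 to 8.59. Pigment epithelium markers ran from 6.02 to 7.78 in young and 6.54 to 7.72 in aged females, and from 6.75 to 7.65 and 8.36 to 9.09 in males. Microglia markers ran from 5.24 to 5.48 and 5.57 to 6.04 in females, and from 5.29 to 5.44 and 5.78 to 6.04 in males, apart by age in both sexes. In females alone 0 and 4 of the pigment epithelium and microglia genes were called higher (0.533% of all probes), and in males 6 and 5 (0.766% of all probes). For the mean of both sexes 7 of 9 pigment epithelium and 8 of 11 microglia genes were called higher (1.4% of all probes). In that comparison 1 of 15 lens genes was called lower (0.479% of all probes). Lens markers spread widely, from 10.34 to 11.25 in young and 9.17 to 11.24 in aged females. In males they ran from 10.18 to 12.25 and 9.70 to 11.30. Their median aging differences were -0.79 in females and 0.26 in males. The part of these cells in the Nxnl2 difference was not tested.

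Of the genes listed as thioredoxin targets and repair enzymes (peroxiredoxins, sulfiredoxin, sulfoxide reductases and ribonucleotide reductase), 11 of 14 were tested and 0 were called for aging. Rrm1 came nearest (mean of both sexes -0.17, SE 0.06, limma adjusted p = 0.19), then Prdx4 (-0.15, SE 0.07, adjusted p = 0.48) and Prdx3 (0.07, SE 0.05, adjusted p = 0.72). Of the glutaredoxin and glutathione genes 6 of 8 were tested and 0 were called, with medians of -0.081 in females and 0.26 in males. Glrx, a glutaredoxin, had the lowest p of them (mean of both sexes -0.15, SE 0.06, limma adjusted p = 0.32), followed by Gss (0.32, SE 0.14, adjusted p = 0.38) and Gclm (0.20, SE 0.09, adjusted p = 0.43).

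Among 17 tested of 25 relatives with a thioredoxin fold, 0 were called in either sex alone and 1 fell for the mean of both, against 0.479% of all probes called lower. It was Txndc5, a protein disulfide isomerase of the endoplasmic reticulum (-0.29, SE 0.07, limma adjusted p = 0.0435). Its levels were 8.42 ± 0.18 in young and 8.23 ± 0.13 in aged females and 8.56 ± 0.08 and 8.17 ± 0.13 in males. Of 26 alternatives 15 ended that call (adjusted p up to 0.13), while the difference stayed between -0.33 and -0.25. They included slide as a fixed block. They also included leaving out any array other than female young 1, female aged 1, male young 4 and male aged 4. Txnl4b (-0.097, SE 0.06, limma adjusted p = 0.59) and Pdia5 (-0.17, SE 0.08, adjusted p = 0.45) had the next lowest p.

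Between the sexes 1 relative was called, Tmx1, a membrane-bound thioredoxin of the endoplasmic reticulum, which was lower in aged males, where 0.546% of all probes were. Its levels were 6.74 ± 0.28 in aged females and 5.96 ± 0.11 in aged males (difference -0.78, SE 0.13, limma adjusted p = 0.00698), and every aged male array lay below every aged female array, as for 3.91% of all probes. At 3 months its difference was -0.54 (SE 0.13, limma adjusted p = 0.0764). The call in aged mice held under all 27 alternatives. Tmx1 was named because it was called, outside the rule for named genes. In the same list Pdia3 read 4.11 on male young 2 and 9.40 to 10.1 on the other 15 arrays, and that array sets the list's highest difference in males (1.38, SE 0.85, limma adjusted p = 0.48).

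Of 8 tested among 10 partners and relatives of Txnip, 1 rose in males, against 0.766% of all probes called higher there, and 0 were called in females. Arrdc4, an alpha-arrestin close to Txnip, rose from 6.29 ± 0.23 to 7.33 ± 0.56 in males (1.05, SE 0.24, limma adjusted p = 0.0470). In females it gave 0.37 (SE 0.24, limma adjusted p = 0.85). It was also called for the mean of both sexes (0.71, SE 0.17, limma adjusted p = 0.0419), and that call ended under 15 of 26 alternatives (adjusted p up to 0.11), with differences from 0.55 to 0.83. Its aged males read 6.58, 7.59, 7.88 and 7.27 against 6.60, 6.07, 6.31 and 6.17 in young males, so the ages overlapped through the low one, male aged 1, labelled 12 months. Without that array the male difference was 1.30 (limma adjusted p = 0.00519). The call in males ended under 19 of 27 alternatives (adjusted p up to 0.18, differences from 0.82 to 1.30), with slide as a fixed block (1.00, adjusted p = 0.0848) among them. It also ended when any single array was left out other than female young 4, female aged 1, female aged 2 and male aged 1. In males 6 of 9 pigment epithelium markers were also called higher, and their part in the Arrdc4 value was not tested. Mlx (mean of both sexes 0.18, SE 0.09, limma adjusted p = 0.52) and Nfe2l2 (-0.15, SE 0.07, adjusted p = 0.45), which encode transcription factors, had the next lowest p.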

How the data were processed

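The first deposited table holds probe intensity values, an average signal per probe and array, per the file headers. Between 20.7% and 24.2% of the values of an array were negative, so a background had been subtracted, and array means differed. The authors also deposited a detection p-value for each signal. The second holds these intensities times 1 factor per array (0.821 to 1.25). The sources used here give neither software nor annotation build. Symbols were updated through RefSeq (24683 of 25697 probes). In R 4.3.3, neqc (limma 3.58.1) transformed the intensities (negative controls inferred from detection p-values, offset 16, quantile normalisation, log2). The filter kept 15016 probes detected (p-value under 0.05) on 4 or more of 16 arrays, which were tested with lmFit and eBayes on 4 group means (12 residual degrees of freedom), two-sided, Benjamini-Hochberg over these probes, threshold 0.05. Scripts were tested on simulated data. Arrays of a group correlated at 0.983 to 0.995, with no copies. Members and lists were chosen with earlier results of these data known. Named are all member probes, Bsg, Slc2a1 and Arrdc4, per list the 3 lowest p for the mean aging difference and each gene called for aging in females or males, and the 5 genes most like Nxnl2 by each measure, of which 1 result is not reported here. List genes are given by their brightest tested probe. Alternatives covered background, scaling, the authors' values, filters, variance model, array weights, slide and replicate number as blocks, the groups fitted and each array left out; for called list genes they were added after the calls were seen.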

Additional observations from a re-analysis of the deposited data

Results flagged for a closer look

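Of 60 groups of 4 arrays, 3 held an array far from the other 3 by Dixon's ratio of gap to range, where chance gives about 1 in 20. Female aged 4 had the highest Nxnl2 level of aged females, 10.01 against 9.85 to 9.87. Male young 2 read 6.11 on Nxnl1 probe ILMN_2434217 against 5.36 to 5.47 in the other young males. Female aged 2 read 5.12 on Nxnl1 probe ILMN_2804701 against 4.72 to 4.77 in the other aged females.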

How the results depend on the processing

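The Nxnl2 aging difference, which chose the set, so that its call under all 27 alternatives supports nothing, ran between -0.67 and -0.57 in females and -0.57 and -0.50 in males. For the mean of both sexes the number of called member probes was 1, 2 without background correction, 2 with an intensity trend and robust variances, and 1 to 2 with 1 array left out. The added probe was ILMN_1257150 of Nxnl1, and the arrays were female aged 4 and male aged 1. For sex at 3 months it was 0, 1 with array weights (Txnrd1), and 0 to 1 with 1 array left out. Of 1908 member values under alternatives 119 changed sign, none of them called. Over all probes, aging called 95 in females (36 to 103 over alternatives), 149 in males (55 to 412) and 282 for the mean (186 to 339). Sex called 59 at 3 months (24 to 236) and 103 in aged mice (26 to 281); the cause was not tested. Deviations of same-numbered arrays correlated at -0.34 to 0.38 (median -0.012), and those of other-numbered arrays at -0.40 to 0.49 (median 0.018). Whether replicate numbers pair arrays cannot be settled by these correlations. With the replicate block 1 member was called for aging in females, 1 in males and 0 for sex, and males had 79 calls. Txnrd1 and the dim probes lie near background, which limits their folds.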
